A study of Mus musculus with 9 samples.

Results

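The genes described here encode the proteins of the mitochondrial ribosome and of the machines that bring proteins into mitochondria. They were chosen by name: every gene on the array whose mouse symbol starts with Mrpl, Mrps, Timm or Tomm followed by a digit. The array carried 103 such genes on 135 probes, and 102 of them were tested among 26866 features. These 102 were 76 mitochondrial ribosomal protein genes, 15 Timm genes, 10 Tomm genes and Mrps36, which fits the name pattern but encodes a subunit of the oxoglutarate dehydrogenase complex and was kept apart. Mrpl21 was the gene left out, because its probe was well above background on 0 of 9 arrays.

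RNA came from J1 cells, an embryonic stem cell line of the mouse strain 129S4/SvJae, grown without feeder cells on gelatin in serum replacement medium with LIF at 1000 U/mL. For 24 h the medium held DMSO as the vehicle control, CHIR99021 at 3 µM or AICAR at 1 mM, with 3 arrays in each of the 3 groups. CHIR99021 inhibits the kinase GSK3 and so raises beta-catenin, and AICAR is an adenosine analogue that cells turn into an AMP mimic, which activates the energy sensor AMPK. The comparisons ask which transcripts of these mitochondrial machines differed after either compound.

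Mitochondria keep a small genome of their own, and the few proteins it encodes, nearly all subunits of the respiratory chain, are made on a dedicated ribosome inside the organelle. The ribosomal RNAs of that ribosome come from the mitochondrial genome, but all of its proteins are encoded in the nucleus, made in the cytosol and imported. Some of these proteins have counterparts in bacterial ribosomes, and others are found only in mitochondria. Import starts at the TOM complex of the outer membrane, where receptors pass precursor proteins to a channel. Precursors with a cleavable targeting sequence then use the TIM23 complex of the inner membrane and its motor, while multispanning carriers are escorted by small TIM chaperones to the TIM22 complex. Embryonic stem cells rely largely on glycolysis and hold small, immature mitochondria, yet they transcribe these genes strongly.

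All 102 genes were well above background on all 9 arrays, and none was saturated. Levels below are log2 background-subtracted signals minus the array's 75th percentile, so 0 marks that percentile and 1 unit is a doubling. The mean level over 9 arrays ran from -2.87 to 6.35 among the genes, with a median of 4.06, against a median of -1.001 over all features tested. They therefore lay among the bright features. Replicate arrays were close: the median SD within a group over the 102 genes was 0.0376 in DMSO, 0.0441 in CHIR99021 and 0.0657 in AICAR. A difference was called when the limma p-value, adjusted by Benjamini-Hochberg over all 26866 features, was under 0.05, and only called differences are described as rises or falls. Values after ± are standard errors of the log2 fold change, from 3 against 3 arrays. The arrays were also scaled in 6 other ways: normexp background correction, quantile normalization, cyclic loess, the array median, spike-ins and the authors' series matrix values. Where 1 or more of these lost a call, or moved its value by over 1.5 times, the number of scalings that kept the call follows the change, with the range of the change under all 6. Quantile normalization and the series matrix values gave nearly the same counts, so they are not separate checks in such tallies.

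Each group was hybridised on a slide of its own and scanned in a run of its own, so slide, scan and treatment cannot be told apart. Whether the numbered replicates were grown separately is not in the labels, and each p-value therefore reflects array-to-array spread that may be technical. In RNA from bulk cultures, a lower share of cells expressing a gene and less RNA per cell cannot be told apart. Correlations of log2 levels over the 26866 features tested were between 0.995 and 0.997 within groups and as low as 0.973 between groups. Of 10 stem cell markers, 10 were well above background on every array. Of the 13 fibroblast genes, 10 were well above background on all arrays of DMSO, 9 of CHIR99021 and 8 of AICAR, while Lum, Postn and Twist2 were not in any group. By limma, of the 10 fibroblast genes tested, 4 were higher and 2 lower with CHIR99021, and 6 were higher and 3 lower with AICAR. The summed level of that list, relative to the 75th percentile, was 3.12 to 3.20 in DMSO, 4.19 to 4.67 in CHIR99021 and 5.03 to 5.89 in AICAR, and that of 5 primitive streak and mesoderm genes, of which Mixl1 was not above background in any group, was 1.08 to 1.14, 8.27 to 8.65 and 1.72 to 1.90. The 5 neural ectoderm genes summed to 6.15 to 6.29, 3.80 to 3.99 and 4.93 to 5.46: by limma all 5 were lower with CHIR99021 and 4 were lower and 1 higher with AICAR, with medians of -1.60 and -0.64, and Pax6 was not above background in CHIR99021. The 7 primitive endoderm genes summed to 0.892 to 1.11 over the 9 arrays, but single genes moved both ways. By limma 3 were higher and 2 lower with CHIR99021, with log2 fold changes from -1.64 to 1.22. With AICAR 4 were higher and 3 lower, from -2.42 to 1.00. Of the 10 stem cell markers, 3 were higher and 4 lower with CHIR99021, and 5 were higher and 3 lower with AICAR. The part of such cell states in the results below was not tested.

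The stretches just upstream of the transcription start are shown for the 4 genes with the largest called changes against DMSO for which the RefSeq promoter table (GRCm38.p6) had an entry: a small TIM chaperone and 3 ribosomal proteins. Each is the 250 bases before the start, written 5′ to 3′ along the transcribed strand. Capitals mark matches, on either strand, to the 4 motifs searched.
Timm8a2, chr14:122034424-122034673, plus strand: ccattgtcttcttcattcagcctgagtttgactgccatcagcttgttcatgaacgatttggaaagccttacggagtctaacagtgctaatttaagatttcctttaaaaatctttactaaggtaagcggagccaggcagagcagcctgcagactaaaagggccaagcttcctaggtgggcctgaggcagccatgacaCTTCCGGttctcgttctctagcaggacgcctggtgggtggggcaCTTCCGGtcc
Mrpl20, chr4:155802628-155802877, plus strand: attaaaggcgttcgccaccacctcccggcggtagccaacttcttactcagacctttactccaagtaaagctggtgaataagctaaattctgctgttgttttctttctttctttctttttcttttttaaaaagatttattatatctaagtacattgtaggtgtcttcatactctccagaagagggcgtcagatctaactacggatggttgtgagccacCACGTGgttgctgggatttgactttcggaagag
Mrps11, chr7:78782881-78783130, plus strand: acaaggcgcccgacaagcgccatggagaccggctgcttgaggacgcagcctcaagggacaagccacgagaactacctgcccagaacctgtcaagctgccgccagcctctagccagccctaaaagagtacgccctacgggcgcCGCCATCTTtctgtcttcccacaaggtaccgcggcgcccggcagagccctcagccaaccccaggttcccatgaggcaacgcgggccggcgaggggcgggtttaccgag
Mrps18b, chr17:35916441-35916690, minus strand: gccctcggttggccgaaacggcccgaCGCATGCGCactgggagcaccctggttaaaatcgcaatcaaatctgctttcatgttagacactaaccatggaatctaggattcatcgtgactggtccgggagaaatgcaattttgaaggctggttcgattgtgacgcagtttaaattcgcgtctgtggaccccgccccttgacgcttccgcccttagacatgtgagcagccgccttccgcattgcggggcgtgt
The motifs were CACGTG, the E-box read by Myc and related factors, GCGCATGCG for NRF1, CCGGAAG for ETS factors including GABPA, and AAGATGGCG for YY1. NRF1, GABPA and YY1 are textbook regulators of nuclear genes for mitochondrial proteins. The capitals in Timm8a2 are ETS matches at positions -54 and -10 from the start, in Mrpl20 an E-box at -33, in Mrps11 a YY1 match at -108 and in Mrps18b an NRF1 match at -224. The last letters of CCGGAAG are the first of AAGATGGCG, so those motifs can overlap.

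The table held 98 windows for 90 of the 102 genes, each from 250 bases before to 50 bases after a start. CCGGAAG occurred in 35.7% of these windows, against 8.86% of all 32851 windows in the table and 11.6% of those of protein-coding genes. AAGATGGCG occurred in 9.18% against 1.40% of all windows and 1.83% of the protein-coding ones. GCGCATGCG was found in 8.16%, against 1.75% and 2.35%, and CACGTG in 12.2%, against 7.15% and 7.84%. For CACGTG the share was 20.8% of the 24 windows of import genes and 9.59% of the 73 windows of ribosomal protein genes. Genes lower with AICAR held CCGGAAG in 37.3% of their 51 windows and the other genes in 34% of their 47 windows. The corresponding shares for CACGTG were 15.7% and 8.51%, or 8 and 4 windows. These are counts of letters in windows and say nothing of binding.

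With AICAR, most of the protein import genes and 38 of the 76 mitochondrial ribosomal protein genes fell. Of the 102 genes, 59 (57.8%) fell and 8 (7.84%) rose with AICAR, against 29.6% of all features lower and 30.9% higher. Their median log2 fold change was -0.19, against 0.03 over all features. Among the 25 import genes 21 fell and 0 rose by limma, with a median of -0.31. At an unadjusted p under 0.05 the counts were 22 and 0. The scalings left 9 to 22 falls and at most 1 rise among them: 9 falls with spike-ins, 13 with cyclic loess and 14 with quantile normalization or in the series matrix values. Ribosomal protein genes had 8 rises beside the 38 falls, which became 4 to 20 rises and 15 to 46 falls under the scalings (20 and 23 with quantile normalization), and a median of -0.14 that stayed below 0 under 4 of 6 other scalings and turned to 0.01 under quantile normalization and in the series matrix values. The import median was between -0.40 and -0.17 under the 6 scalings. On single arrays the import median, relative to the DMSO mean of each gene, was -0.25, -0.30 and -0.31 in AICAR, and the ribosomal median was -0.12, -0.16 and -0.16, while the 3 DMSO arrays lay between -0.02 and 0.01 for both groups.

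**Figure D1:**
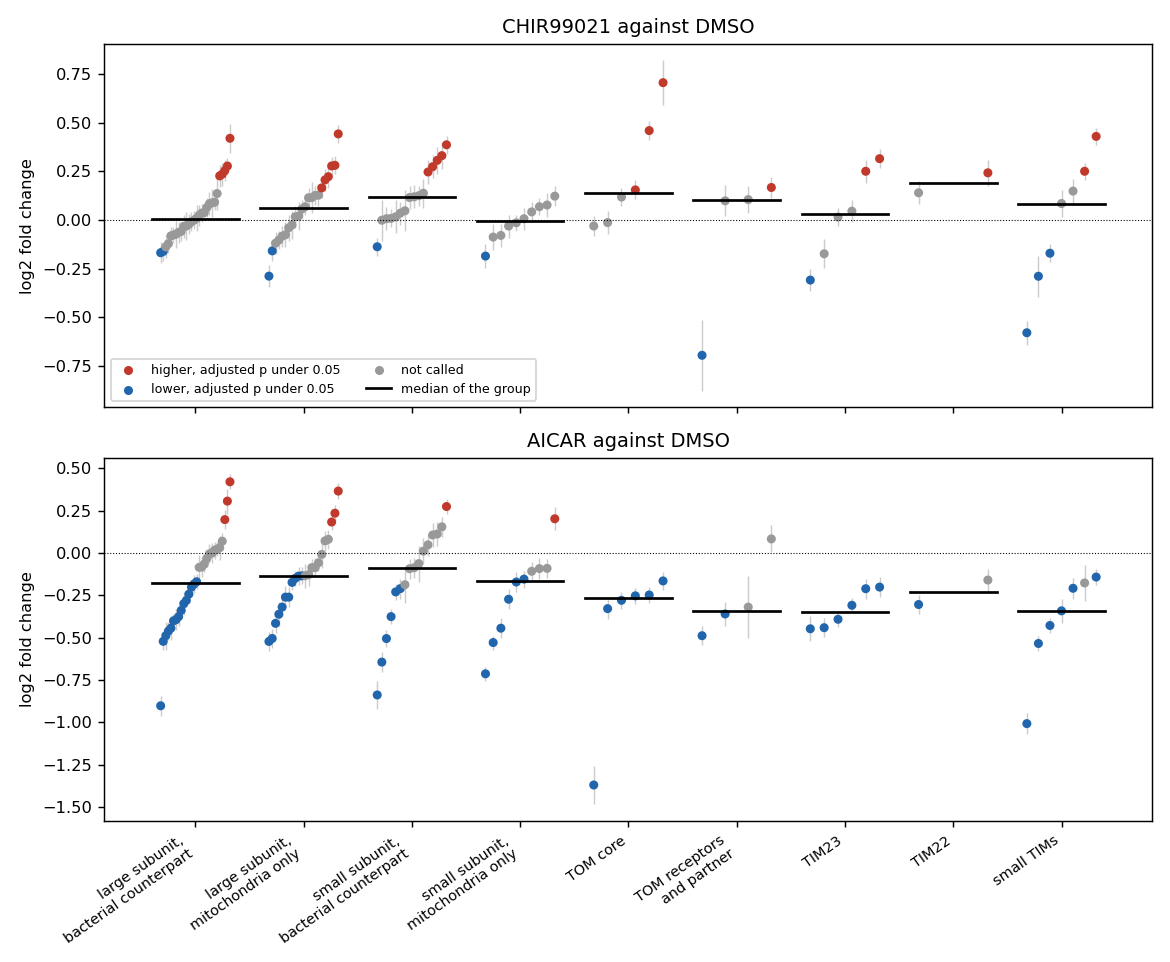
Log2 fold change of each gene (points, with standard error bars, 3 against 3 arrays) after CHIR99021 (top) and AICAR (bottom), sorted within 9 groups by role. Mrps36 is not drawn. Red and blue points passed the limma test as higher or lower, grey points did not, and black bars are group medians. With AICAR the 6 TOM core and the 6 TIM23 genes are all blue, while each ribosomal group also holds red points.

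With AICAR, bright features as a class were shifted downward, and this bears on every count above. The lowess trend of the AICAR fold change on mean level ran from 0.16 at a level of -4 to 0.04 at 0 and -0.15 at 4. Features that were no members but within the interquartile range of the genes' levels (3.14 to 5.02, 2481 features) were lower in 47.5% and higher in 17.6%, with a median of -0.14. Of the 50 genes in that range, 27 fell and 4 rose. Against the trend, the ribosomal protein genes were centred: their median residual was -0.01, and 39 of 76 lay below it. The import genes were not, with a median residual of -0.19 and 23 of 25 below the trend. Under the 6 alternatives these residual medians were -0.02 to -0.01 for ribosomal and -0.20 to -0.19 for import genes. The trend was refitted under each scaling, so array median and spike-in scaling, which shift a whole array, cannot move them. A shift that varies smoothly with level is largely absorbed as well. The narrow ranges are therefore no check of the residuals. The difference between the groups is a description and was not tested. The downward shift of bright features itself depended on the scaling. The ribosomal median lay close to its residual with spike-ins (-0.0056 and -0.0085) and cyclic loess (-0.0027 and -0.0080). With quantile normalization it lay above its residual (0.0148 and -0.0053). Little or no downward shift was thus left at the level of these genes on those scales.

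**Figure D2:**
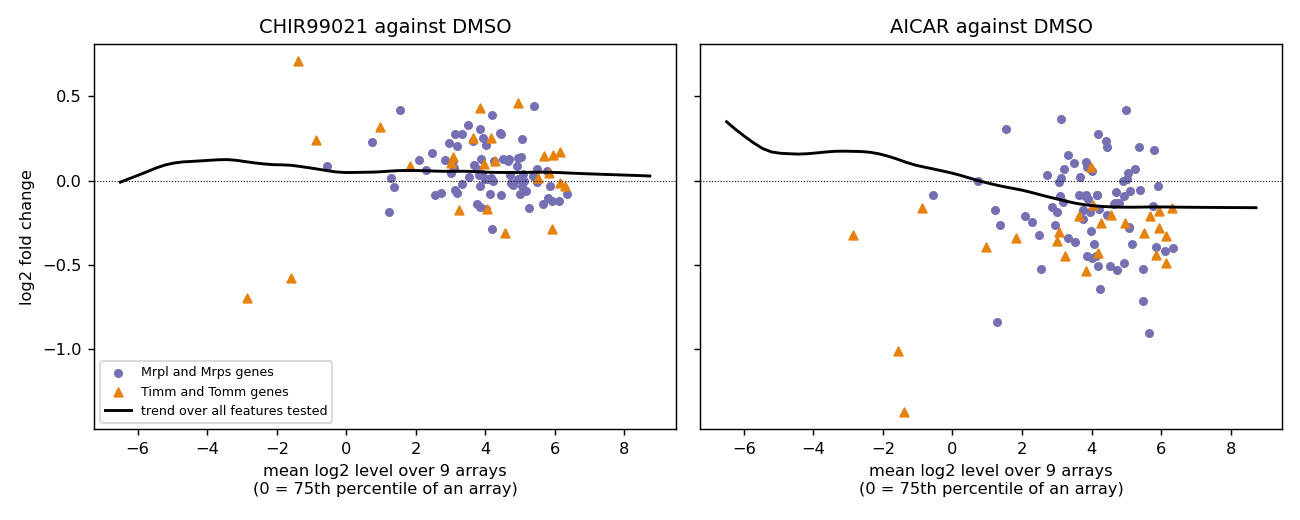
Log2 fold change of each gene (vertical axis) against its mean log2 level over 9 arrays (horizontal axis), with the lowess trend over all features tested as a black line, for CHIR99021 (left) and AICAR (right). The AICAR trend falls from 0.16 at a level of -4 to -0.15 at 4; 23 of 25 Timm and Tomm genes (triangles) lie below it, and the Mrpl and Mrps genes (circles) spread on both sides.

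At the outer membrane, all 6 TOM core genes fell with AICAR, the median being -0.27, and 3 of them rose with CHIR99021, where the median was 0.14. Under the scalings 1 to 6 of the 6 were called lower with AICAR and 2 higher with CHIR99021, and the medians kept their sign. Of all features 29.6% were lower with AICAR and 30.4% higher with CHIR99021. Among other features within the interquartile range of the genes' levels, 47.5% were lower with AICAR. The AICAR residual median of the TOM core from the trend was -0.11. Tomm40, which forms the channel, had log2 levels of 4.89, 4.85 and 4.90 on the DMSO arrays, 5.32, 5.33 and 5.37 on the CHIR99021 arrays and 4.68, 4.65 and 4.57 on the AICAR arrays. The 3 groups did not overlap, CHIR99021 being highest and AICAR lowest. Its fold change was 0.46 ± 0.05 (limma adjusted p = 0.000116) with CHIR99021 and -0.25 ± 0.05 (limma adjusted p = 0.00218, 2 of 6 scalings, -0.34 to -0.06) with AICAR. The second Tomm40 probe fell by 0.65 with AICAR and was at 0.01 ± 0.08 with CHIR99021, so the rise rested on 1 of 2 probes.

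Tomm40l, a paralogue of the channel protein, had the largest fitted difference between the treatments among the 102 genes. Its levels were -1.13, -1.25 and -1.17 on the DMSO arrays, -0.44, -0.57 and -0.41 on the CHIR99021 arrays and -2.43, -2.83 and -2.40 on the AICAR arrays. Every CHIR99021 array lay above, and every AICAR array below, the DMSO arrays. The change was 0.71 ± 0.11 (limma adjusted p = 0.00132) with CHIR99021 and -1.37 ± 0.11 (limma adjusted p = 2.46e-05) with AICAR, a ratio of 1.63 and 0.387 to DMSO. In AICAR it lay -1.48 from the trend at its level.

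Tomm22, the receptor that organises the complex, changed by -0.25 ± 0.05 (limma adjusted p = 0.00234, 2 of 6 scalings, -0.35 to -0.06) with AICAR and by 0.12 ± 0.05 (limma adjusted p = 0.0734) with CHIR99021, the latter not called. Tomm5, Tomm6 and Tomm7 are small subunits that stabilise the channel, and they fell with AICAR by 0.33, 0.28 and 0.17, calls kept under 4, 2 and 2 of the scalings, and Tomm7 was above 0, by at most 0.02, under 3. Of these, Tomm6 rose with CHIR99021, by 0.15 ± 0.05 (limma adjusted p = 0.0298, 0 of 6 scalings, 0.09 to 0.11). Their AICAR falls lay within 0.17 of the trend line for features of their level. Tomm40l remained lower with AICAR under all 6 scalings.

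The receptors Tomm20, which binds targeting sequences, and Tomm70a, which takes hydrophobic precursors from chaperones, both fell with AICAR. Tomm20 had levels of 6.18, 6.29 and 6.27 on the DMSO arrays, 6.41, 6.46 and 6.37 on the CHIR99021 arrays and 5.69, 5.78 and 5.80 on the AICAR arrays. AICAR arrays were lowest and CHIR99021 arrays highest, with no overlap between groups. The fold change was -0.49 ± 0.05 (limma adjusted p = 0.000128, 6 of 6 scalings, -0.58 to -0.31) with AICAR and 0.17 ± 0.05 (limma adjusted p = 0.0342, 0 of 6 scalings, 0.10 to 0.17) with CHIR99021, the latter lost when any one of DMSO replicates 1, 2 or 3 or CHIR99021 replicates 1 or 2 was left out (0.13 to 0.19, limma adjusted p from 0.0512 to 0.112). Its second probe was at -0.07 ± 0.07 with AICAR and was not called, so the fall rested on 1 of 2 probes. Tomm70a, with levels of 3.07, 3.06 and 3.13 on the DMSO arrays, 3.17, 3.21 and 3.20 on the CHIR99021 arrays and 2.74, 2.86 and 2.58 on the AICAR arrays, changed by -0.36 ± 0.07 (limma adjusted p = 0.00268, 6 of 6 scalings, -0.46 to -0.23) with AICAR. All 3 AICAR arrays were below the other 6, and CHIR99021 was not called, at 0.11 ± 0.07.

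Tomm34, a cytosolic partner of the import receptors that binds heat shock proteins, was called with neither compound, at 0.10 ± 0.08 with CHIR99021 and 0.08 ± 0.08 with AICAR. Tomm20l, a paralogue of Tomm20, had levels of -2.29, -2.42 and -2.88 on the DMSO arrays, -2.97, -3.50 and -3.22 on the CHIR99021 arrays and -2.77, -3.01 and -2.78 on the AICAR arrays. It fell with CHIR99021, at -0.69 ± 0.18 (limma adjusted p = 0.0138, 6 of 6 scalings, -0.78 to -0.38). With AICAR it was at -0.32 ± 0.18 and was not called, unless DMSO replicate 3, the lowest of its group, was left out (-0.50, limma adjusted p = 0.0328).

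In the TIM23 complex of the inner membrane, all 6 genes fell with AICAR, against 29.6% of all features lower. Their median was -0.35, with a median residual of -0.22 from the trend. The count was 3 to 6 under the 6 scalings, and the median stayed below 0 in each. Timm23, the core of the complex, had levels of 6.04, 5.94 and 5.94 on the DMSO arrays, 5.998, 6.05 and 6.01 on the CHIR99021 arrays and 5.62, 5.50 and 5.48 on the AICAR arrays. DMSO and CHIR99021 arrays overlapped, and the 3 AICAR arrays were below all of them. The change was -0.44 ± 0.05 (limma adjusted p = 0.000228, 6 of 6 scalings, -0.55 to -0.27) with AICAR and 0.05 ± 0.05 (limma adjusted p = 0.52) with CHIR99021. Its second probe was also lower with AICAR, at -0.23 ± 0.04, and was called higher with CHIR99021, at 0.21 ± 0.04.

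Timm50, the receptor of the complex, and Timm21, which links it to the outer membrane and the respiratory chain, fell as well. Timm50 had levels of 3.40, 3.42 and 3.50 on the DMSO arrays, 3.22, 3.35 and 3.23 on the CHIR99021 arrays and 3.14, 2.94 and 2.90 on the AICAR arrays. Its fold change was -0.45 ± 0.07 (limma adjusted p = 0.00114) with AICAR, and -0.17 ± 0.07 with CHIR99021, not called. Timm21 was at 0.97, 1.02 and 1.02 on the DMSO arrays, 1.31, 1.35 and 1.29 on the CHIR99021 arrays and 0.54, 0.65 and 0.64 on the AICAR arrays. The groups were apart, in the order CHIR99021, DMSO, AICAR, with changes of 0.32 ± 0.05 (limma adjusted p = 0.00101, 5 of 6 scalings, 0.25 to 0.32) and -0.39 ± 0.05 (limma adjusted p = 0.000219). Timm44, which anchors the motor's heat shock protein, rose by 0.25 ± 0.06 (limma adjusted p = 0.00794, 4 of 6 scalings, 0.19 to 0.24) with CHIR99021 and changed by -0.21 ± 0.06 (limma adjusted p = 0.014, 2 of 6 scalings, -0.31 to -0.07) with AICAR, a call lost without DMSO replicate 3 (-0.17, limma adjusted p = 0.0503).

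Timm17a and Timm17b encode alternative channel subunits of TIM23, and their calls with CHIR99021 differed. Timm17a had levels of 5.63, 5.61 and 5.61 on the DMSO arrays, 5.59, 5.67 and 5.63 on the CHIR99021 arrays and 5.35, 5.28 and 5.28 on the AICAR arrays. CHIR99021 overlapped DMSO there, at 0.02 ± 0.04, and AICAR was lower, at -0.31 ± 0.04 (limma adjusted p = 0.000525, 5 of 6 scalings, -0.40 to -0.12). Timm17b had levels of 4.79, 4.70 and 4.67 on the DMSO arrays, 4.40, 4.41 and 4.44 on the CHIR99021 arrays and 4.62, 4.47 and 4.47 on the AICAR arrays. All CHIR99021 arrays were below DMSO, at -0.31 ± 0.06 (limma adjusted p = 0.00289). With AICAR Timm17b changed by -0.20 ± 0.06 (limma adjusted p = 0.017, 2 of 6 scalings, -0.30 to -0.00394), a call lost when any one of DMSO replicate 1 or AICAR replicates 2 or 3 was left out (-0.18 to -0.17, limma adjusted p from 0.0517 to 0.0608). The difference between the paralogues was not tested.

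**Figure D3:**
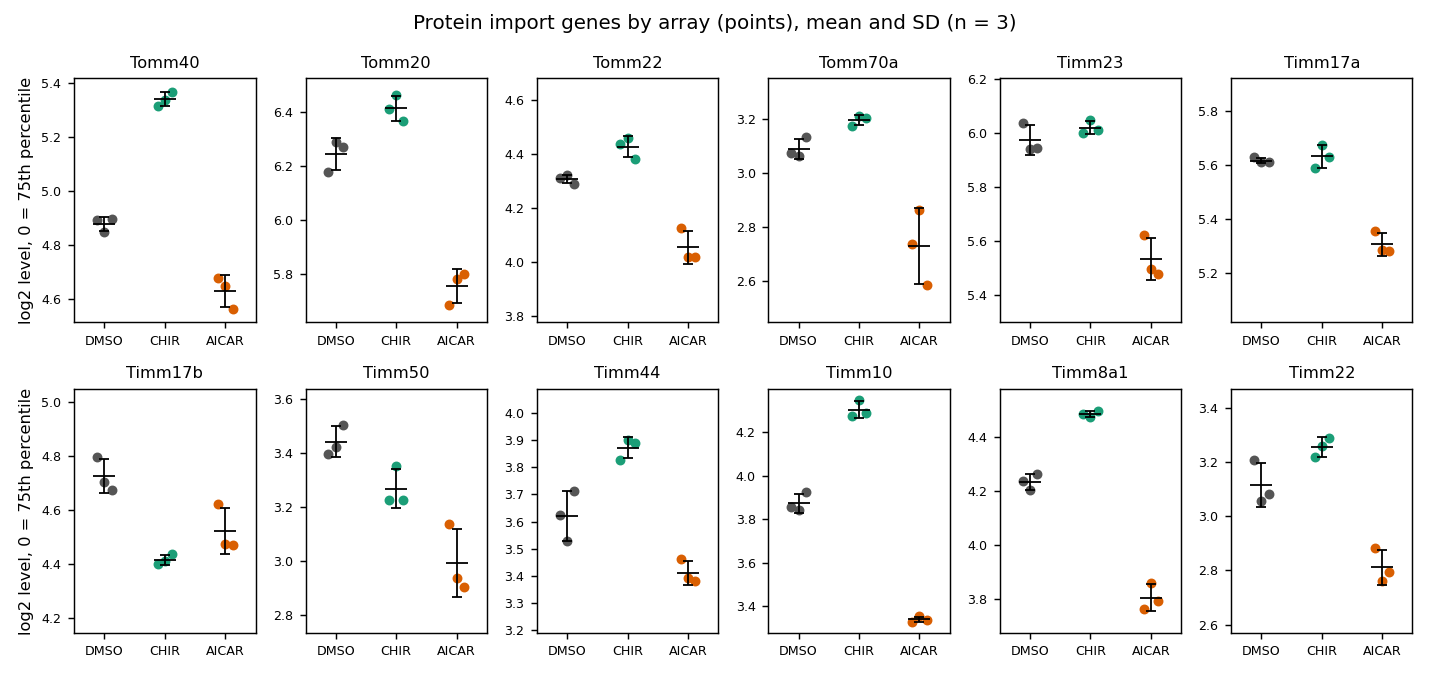
Log2 level, relative to the array's 75th percentile, of 12 import genes on each array (points), with the mean and SD of the 3 arrays of a group. The vertical scale differs between panels. AICAR arrays lie below all DMSO arrays in each panel. CHIR99021 arrays lie above DMSO for Tomm40, Timm10 and Timm8a1, among others, and below it for Timm17b and for Timm50, which was not called.

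Small TIM chaperones carry hydrophobic precursors across the space between the membranes. With AICAR 6 of these 7 genes fell (3 to 6 under the scalings), or 85.7% against 29.6% of all features. Their median was -0.34, with a residual of -0.28. Timm10, which forms a ring with Timm9, had levels of 3.86, 3.84 and 3.92 on the DMSO arrays, 4.28, 4.35 and 4.29 on the CHIR99021 arrays and 3.33, 3.35 and 3.34 on the AICAR arrays. The groups were widely apart relative to their spread, and the changes were 0.43 ± 0.04 (limma adjusted p = 0.000127) with CHIR99021 and -0.53 ± 0.04 (limma adjusted p = 2.45e-05) with AICAR. A second Timm10 probe was called the same way in both comparisons, at 0.32 ± 0.06 and -0.64 ± 0.06. Timm9 itself fell with AICAR, at -0.34 ± 0.07 (limma adjusted p = 0.00373, 5 of 6 scalings, -0.44 to -0.21), and was not called with CHIR99021, at 0.09 ± 0.07. Timm13, the partner of Timm8 proteins, changed by -0.21 ± 0.06 (limma adjusted p = 0.0214, 1 of 6 scalings, -0.30 to -0.03) with AICAR, a call lost when any one of DMSO replicates 2 or 3 or AICAR replicates 2 or 3 was left out (-0.21 to -0.16, limma adjusted p from 0.0505 to 0.0749).

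Timm8a1 is the mouse counterpart of a gene mutated in human deafness-dystonia syndrome, and Timm8a2 is its paralogue. Timm8a1 had levels of 4.24, 4.20 and 4.26 on the DMSO arrays, 4.49, 4.47 and 4.50 on the CHIR99021 arrays and 3.76, 3.86 and 3.79 on the AICAR arrays. CHIR99021 arrays were above and AICAR arrays below DMSO, by 0.25 ± 0.04 (limma adjusted p = 0.00213, 5 of 6 scalings, 0.19 to 0.23) and -0.43 ± 0.04 (limma adjusted p = 8.25e-05, 6 of 6 scalings, -0.52 to -0.25). Timm8a2, whose upstream stretch with its ETS matches is printed above, had levels of -1.07, -1.13 and -0.95 on the DMSO arrays, -1.65, -1.61 and -1.63 on the CHIR99021 arrays and -1.98, -2.12 and -2.07 on the AICAR arrays. Both treatments lay below DMSO without overlap, at -0.58 ± 0.06 (limma adjusted p = 0.000153) and -1.01 ± 0.06 (limma adjusted p = 5.08e-06). Hybridisation of one paralogue's RNA to the other's probe was not tested. Timm8b was lower with CHIR99021, at -0.29 ± 0.10 (limma adjusted p = 0.0489, 5 of 6 scalings, -0.36 to -0.29), a call lost when any one of DMSO replicates 1, 2 or 3, CHIR99021 replicates 1 or 3 or AICAR replicates 1, 2 or 3 was left out (-0.33 to -0.16, limma adjusted p from 0.0577 to 0.129). CHIR99021 replicate 3, at 5.53, was well below the other arrays of its group, and the change without it was -0.16. With AICAR Timm8b was at -0.18 ± 0.10 and was not called, unless the same CHIR99021 replicate 3 was left out of the shared fit (-0.18, limma adjusted p = 0.021).

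At the TIM22 complex for carrier proteins, the channel gene Timm22 had levels of 3.21, 3.06 and 3.08 on the DMSO arrays, 3.22, 3.26 and 3.29 on the CHIR99021 arrays and 2.88, 2.76 and 2.79 on the AICAR arrays. It was lower on each AICAR array, at -0.30 ± 0.06 (limma adjusted p = 0.00235, 5 of 6 scalings, -0.40 to -0.17), and was not called with CHIR99021, at 0.14 ± 0.06. Timm29, a further subunit of the complex, rose by 0.24 ± 0.07 (limma adjusted p = 0.0162, 3 of 6 scalings, 0.16 to 0.20) with CHIR99021, a call lost without DMSO replicate 3 (0.22, limma adjusted p = 0.0561). With AICAR Timm29 was at -0.16 ± 0.07 and was not called, unless CHIR99021 replicate 3 was left out of the shared fit (-0.16, limma adjusted p = 0.0455).

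Among the ribosomal protein genes, the AICAR falls were spread over both subunits. Of the 50 large subunit genes 26 fell and 6 rose (9 to 31 and 3 to 13 under the scalings), and of the 26 small subunit genes 12 fell and 2 rose (6 to 15 and 1 to 7), with medians of -0.14 and -0.13, each of which was above 0 under 2 of 6 other scalings, at 0.01 or less. Proteins with a bacterial counterpart (44 genes, 21 falls, 4 rises) and those specific to mitochondria (32 genes, 17 falls, 4 rises) had medians of -0.13 and -0.14, which were above 0 under 2 and 3 of the scalings. In the order given, these 4 sets were 52%, 46.2%, 47.7% and 53.1% lower, and 12%, 7.69%, 9.09% and 12.5% higher. All features were 29.6% lower and 30.9% higher. The shares lower were near the 47.5% of other features within the interquartile range of the genes' levels, of which 17.6% were higher. Residual medians from the trend were -0.01, -0.02, -0.03 and 0.01. Large subunit proteins with a bacterial counterpart had the lowest median of the 4 combinations, -0.18, which was below 0 under all 6, and the small subunit ones with a counterpart the highest, -0.09, which was above 0 under 4.

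The deepest falls were in 4 genes, all lower under the 6 scalings. Mrpl20, a large subunit protein with a bacterial counterpart, had levels of 5.94, 6.01 and 6.07 on the DMSO arrays, 5.87, 5.84 and 5.89 on the CHIR99021 arrays and 5.18, 5.11 and 5.01 on the AICAR arrays. Its AICAR arrays were the lowest, at -0.90 ± 0.06 (limma adjusted p = 6.97e-06), which is -0.75 from the trend. With CHIR99021 Mrpl20 was at -0.14 ± 0.06 and was not called. Mrps11, a small subunit protein with a bacterial counterpart, had levels of 1.67, 1.46 and 1.52 on the DMSO arrays, 1.44, 1.70 and 1.57 on the CHIR99021 arrays and 0.78, 0.62 and 0.74 on the AICAR arrays. DMSO and CHIR99021 overlapped, and AICAR was lower, at -0.84 ± 0.09 (limma adjusted p = 7.33e-05).

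Mrps18b, one of the S18-type paralogues of the small subunit, had levels of 5.68, 5.72 and 5.72 on the DMSO arrays, 5.74, 5.80 and 5.78 on the CHIR99021 arrays and 5.03, 4.99 and 4.96 on the AICAR arrays. AICAR arrays were far below the other 6, at -0.71 ± 0.04 (limma adjusted p = 4.49e-06). Mrps7, which helps start assembly of the small subunit in bacteria, had levels of 4.50, 4.33 and 4.47 on the DMSO arrays, 4.50, 4.59 and 4.56 on the CHIR99021 arrays and 3.76, 3.83 and 3.78 on the AICAR arrays. It was at -0.64 ± 0.06 (limma adjusted p = 3.63e-05) with AICAR and 0.12 ± 0.06 with CHIR99021. The E-box, YY1 and NRF1 matches printed above belong to Mrpl20, Mrps11 and Mrps18b in turn, so the 3 upstream stretches share no motif among those searched.

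Mrpl12 and Mrpl11, which build the stalk that recruits translation factors, both fell with AICAR. Mrpl12 had levels of 5.04, 4.996 and 5.10 on the DMSO arrays, 5.08, 5.24 and 5.23 on the CHIR99021 arrays and 4.72, 4.50 and 4.45 on the AICAR arrays. Its change was -0.49 ± 0.08 (limma adjusted p = 0.00119, 6 of 6 scalings, -0.58 to -0.30), and the CHIR99021 arrays, at 0.14 ± 0.08, were not called. Mrpl11 had levels of 5.68, 5.67 and 5.65 on the DMSO arrays, 5.67, 5.68 and 5.62 on the CHIR99021 arrays and 5.23, 5.11 and 5.09 on the AICAR arrays. CHIR99021 overlapped DMSO, and AICAR was lower, at -0.52 ± 0.05 (limma adjusted p = 5.36e-05, 6 of 6 scalings, -0.62 to -0.35). Mrpl46, found only in mitochondrial ribosomes, was close to these, at -0.52 ± 0.05 (limma adjusted p = 8e-05). Mrps12, a protein of the decoding centre, differed from them: its levels were 4.96, 4.95 and 5.01 on the DMSO arrays, 5.07, 5.18 and 5.09 on the CHIR99021 arrays and 5.12, 5.005 and 4.83 on the AICAR arrays. Its CHIR99021 arrays lay above all DMSO arrays, and its AICAR arrays overlapped both groups. Neither change was called, at 0.14 ± 0.08 with CHIR99021 and 0.01 ± 0.08 with AICAR.

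Mrpl41 was lower with both compounds. Its levels were 4.43, 4.49 and 4.41 on the DMSO arrays, 4.24, 4.10 and 4.13 on the CHIR99021 arrays and 3.94, 4.01 and 3.87 on the AICAR arrays, and the 3 groups were apart. The changes were -0.29 ± 0.06 (limma adjusted p = 0.00416) with CHIR99021 and -0.50 ± 0.06 (limma adjusted p = 0.000151, 6 of 6 scalings, -0.60 to -0.32) with AICAR. Both calls were lost when its probes were averaged. Mrps27, an RNA-binding protein of the small subunit, was at -0.19 ± 0.06 (4 of 6 scalings, -0.25 to -0.12) and -0.17 ± 0.06 (1 of 6 scalings, -0.27 to -0.04). The first call was lost when any one of DMSO replicates 1, 2 or 3 or CHIR99021 replicates 1, 2 or 3 was left out (-0.20 to -0.17, limma adjusted p from 0.0609 to 0.094). The second was lost when any one of DMSO replicates 1, 2 or 3, CHIR99021 replicates 1, 2 or 3 or AICAR replicates 2 or 3 was left out (-0.18 to -0.11, limma adjusted p from 0.0516 to 0.103).

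A smaller group of ribosomal protein genes rose with AICAR. Mrpl24, a large subunit protein with a bacterial counterpart, had levels of 4.85, 4.89 and 4.93 on the DMSO arrays, 4.77, 4.83 and 4.83 on the CHIR99021 arrays and 5.35, 5.28 and 5.31 on the AICAR arrays. AICAR arrays were the highest, at 0.42 ± 0.05 (limma adjusted p = 0.000105), and lay 0.58 above the trend, while CHIR99021 was at -0.08 ± 0.05, not called. Mrpl57 and Mrpl23 rose by 0.18 ± 0.05 (4 of 6 scalings, 0.09 to 0.36) and 0.20 ± 0.05 (5 of 6 scalings, 0.10 to 0.40). Mrps31 was at 0.20 ± 0.07 (5 of 6 scalings, 0.11 to 0.39), a call lost when any one of DMSO replicates 1, 2 or 3 or AICAR replicate 3 was left out (0.14 to 0.21, limma adjusted p from 0.0652 to 0.0846).

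Mrpl1, Mrps21, Mrpl45 and Mrpl49 were higher with both compounds. Mrpl1 had levels of 1.40, 1.25 and 1.23 on the DMSO arrays, 1.73, 1.69 and 1.72 on the CHIR99021 arrays and 1.48, 1.596 and 1.72 on the AICAR arrays. All 6 treated arrays were above the DMSO arrays, at 0.42 ± 0.07 (limma adjusted p = 0.00196) and 0.31 ± 0.07 (limma adjusted p = 0.0073). Mrps21 had levels of 3.98, 3.996 and 3.96 on the DMSO arrays, 4.34, 4.43 and 4.33 on the CHIR99021 arrays and 4.26, 4.23 and 4.27 on the AICAR arrays. The treated arrays were again the higher ones, at 0.39 ± 0.05 (limma adjusted p = 0.000239) and 0.27 ± 0.05 (limma adjusted p = 0.00105, 6 of 6 scalings, 0.18 to 0.45). Mrpl45, which in human ribosomes contacts the inner membrane, changed by 0.28 ± 0.05 (5 of 6 scalings, 0.22 to 0.27) and 0.23 ± 0.05 (5 of 6 scalings, 0.14 to 0.42).

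The direction of Mrpl49 depended on the probe. The one used read 2.90, 2.95 and 2.88 on the DMSO arrays, 3.20, 3.17 and 3.19 on the CHIR99021 arrays and 3.30, 3.32 and 3.21 on the AICAR arrays, rises of 0.28 ± 0.05 (5 of 6 scalings, 0.21 to 0.28) and 0.37 ± 0.05 (limma adjusted p = 0.000284). The other was lower with AICAR, at -0.18 ± 0.05 (limma adjusted p = 0.0118), and at 0.02 ± 0.05 with CHIR99021. Of the 32 genes with 2 probes this was the 1 called in opposite directions with AICAR; 21 had the same call for both probes and 10 were called by 1 probe only. The median absolute difference between the probes' AICAR fold changes was 0.109, and the largest was 0.674.

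**Figure D4:**
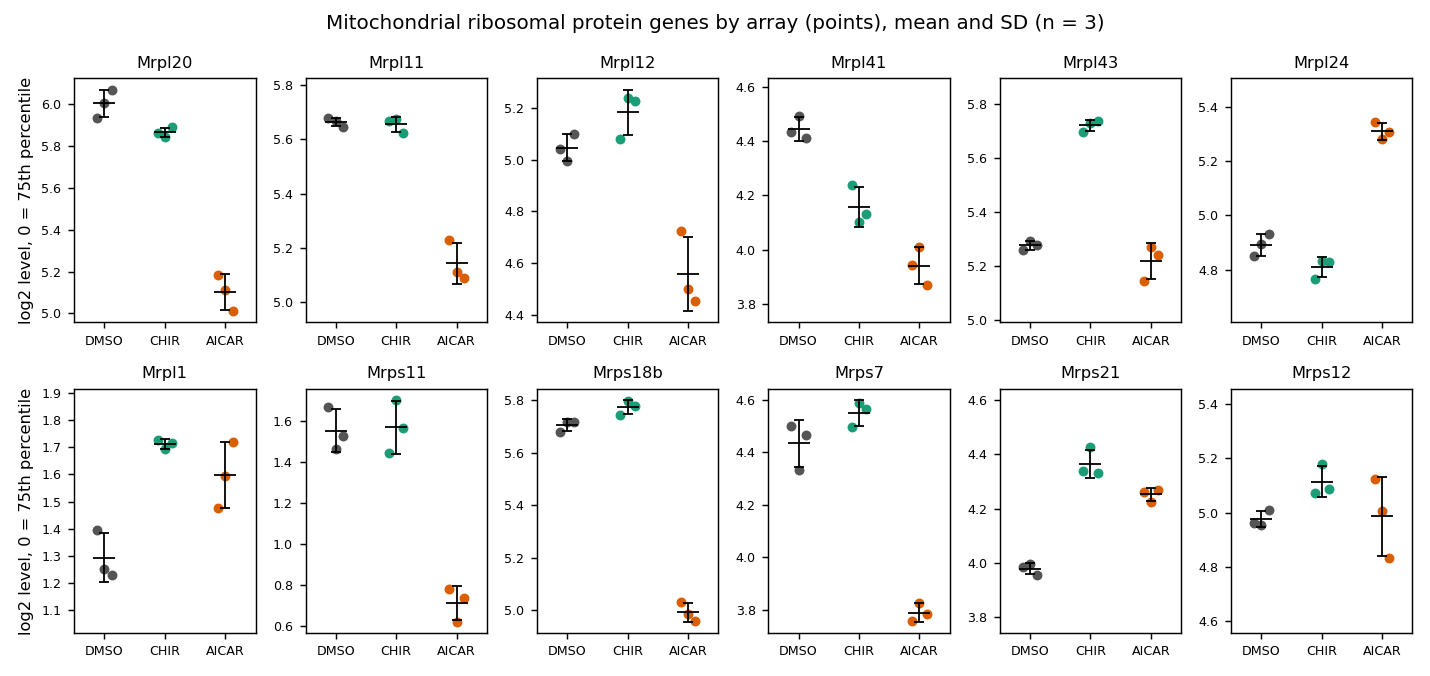
Log2 level, relative to the array's 75th percentile, of 12 mitochondrial ribosomal protein genes on each array (points), with the mean and SD of the 3 arrays of a group. The vertical scale differs between panels. AICAR arrays are lowest for Mrpl20, Mrps11, Mrps18b and Mrps7, highest for Mrpl24, and overlap DMSO for Mrpl43 and Mrps12.

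CHIR99021 changed fewer of the genes. Of the 102, 26 (25.5%) rose and 11 (10.8%) fell, against 30.4% higher and 20.5% lower among all features, and 65 were not called. The median fold change was 0.05, against 0.07 over all features, and it was between -0.02 and 0.06 under the 6 scalings, below 0 in 4 of them. Import genes had 9 rises and 5 falls (3 to 7 and 3 to 6 under the scalings) with a median of 0.11, which remained above 0 under the 6 scalings. Ribosomal protein genes had 16 rises and 6 falls (4 to 15 and 1 to 12) with a median of 0.04, which was below 0 under every scaling but normexp. Against the trend the medians were 0.05 for import and -0.01 for ribosomal protein genes. The AICAR and CHIR99021 comparisons share the DMSO arrays, so their values are given side by side and not as an overlap.

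Mrpl43, a large subunit protein specific to mitochondria, was the ribosomal gene with the largest CHIR99021 rise. Its levels were 5.26, 5.30 and 5.28 on the DMSO arrays, 5.70, 5.73 and 5.74 on the CHIR99021 arrays and 5.15, 5.27 and 5.24 on the AICAR arrays. The CHIR99021 arrays were above all others and AICAR overlapped DMSO, with changes of 0.44 ± 0.05 (limma adjusted p = 0.000153) and -0.06 ± 0.05, the second not called, though called higher, at 0.14 and 0.13, with quantile normalization and in the series matrix values, and lower under 1 other scaling. Mrps14 rose by 0.31 ± 0.07 (limma adjusted p = 0.00702) and Mrpl18 by 0.28 ± 0.04 (limma adjusted p = 0.00117, 5 of 6 scalings, 0.21 to 0.30), the latter being lower with AICAR, at -0.20 ± 0.04 (limma adjusted p = 0.0045, 2 of 6 scalings, -0.30 to -0.00286). Mrpl44, Mrpl50 and Mrpl3 likewise were called higher with CHIR99021, by 0.17, 0.22 and 0.25, calls kept under 0, 3 and 5 of the scalings, and lower with AICAR, by 0.32, 0.26 and 0.18, kept under 5, 2 and 2. Mrpl14 was lower with CHIR99021, at -0.16 ± 0.05 (limma adjusted p = 0.0276, 4 of 6 scalings, -0.23 to -0.14), a call lost when any one of DMSO replicates 1 or 2 or CHIR99021 replicates 1 or 3 was left out (-0.16 to -0.14, limma adjusted p from 0.0684 to 0.0863). Mrps36, of the oxoglutarate dehydrogenase complex, rose by 0.21 ± 0.05 (limma adjusted p = 0.00911, 2 of 6 scalings, 0.14 to 0.21) with CHIR99021 and was at 0.06 ± 0.05 with AICAR.

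Set directly against AICAR, CHIR99021 gave the higher level for 64 (62.7%) of the 102 genes and the lower one for 5 (4.90%), against 36.2% higher and 24.6% lower among all features. The median was 0.25, and 0.08 after the trend was subtracted. Bright features as a class were higher here: other features within the interquartile range of the genes' levels were 54.6% higher and 13.4% lower. Of the 50 genes in that range, 29 were higher and 2 lower. Import genes were higher in 19 of 25 and lower in 0 by limma (20 and 0 at an unadjusted p under 0.05, and 7 to 19 and 0 to 4 under the scalings), with a median of 0.43 that ranged from 0.23 to 0.46 under the scalings. The largest differences among them were 2.08 ± 0.11 (limma adjusted p = 2.38e-06) for Tomm40l, a ratio of 4.22, and 0.96 ± 0.04 (limma adjusted p = 1.04e-06) for Timm10, a ratio of 1.95. Tomm40 followed at 0.71 ± 0.05, Timm21 at 0.71 ± 0.05, Timm8a1 at 0.68 ± 0.04 and Tomm20 at 0.66 ± 0.05 (6 of 6 scalings, 0.43 to 0.69). Ribosomal genes had 44 higher and 5 lower, or 57.9% and 6.58%, which became 11 to 47 and 4 to 13 under the scalings. Their median residual from the trend was 0.02, against 0.25 for import genes, so the ribosomal genes were centred on the trend. Mrps11 was at 0.86 ± 0.09 and Mrps18b at 0.78 ± 0.04. The 5 lower ones were Mrpl24 at -0.50 ± 0.05, Mrps31 at -0.29 ± 0.07 (6 of 6 scalings, -0.52 to -0.26), Mrpl57 at -0.29 ± 0.05 (6 of 6 scalings, -0.53 to -0.25), Mrpl14 at -0.23 ± 0.05 (6 of 6 scalings, -0.46 to -0.20) and Mrpl23 at -0.17 ± 0.05 (4 of 6 scalings, -0.40 to -0.10), the last lost when any one of CHIR99021 replicates 1 or 3 or AICAR replicates 1 or 2 was left out (-0.18 to -0.14, limma adjusted p from 0.0502 to 0.0793).

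Scaling sets the absolute size of these medians, since an array reports shares of RNA and not molecules per cell. Of the 59 genes lower with AICAR, 24 were called lower under all 6 other scalings, 9 import and 15 ribosomal. The import genes were Timm10, Timm21, Timm23, Timm50, Timm8a1, Timm8a2, Tomm20, Tomm40l and Tomm70a. Mrpl1, Mrpl24, Mrpl49 and Mrps21 were the 4 rises that were called under all of them. The scalings do not cover the choice of probe: the other Mrpl49 probe was lower with AICAR, and the second Tomm20 probe was not called. Spike-in scaling moved the AICAR median of all features from 0.03 to 0.16, and array median scaling moved it to -0.07. Relative to that median of all features, import genes lay between -0.34 and -0.22 and ribosomal protein genes between -0.16 and -0.03 over the 7 settings.

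**Figure D5:**
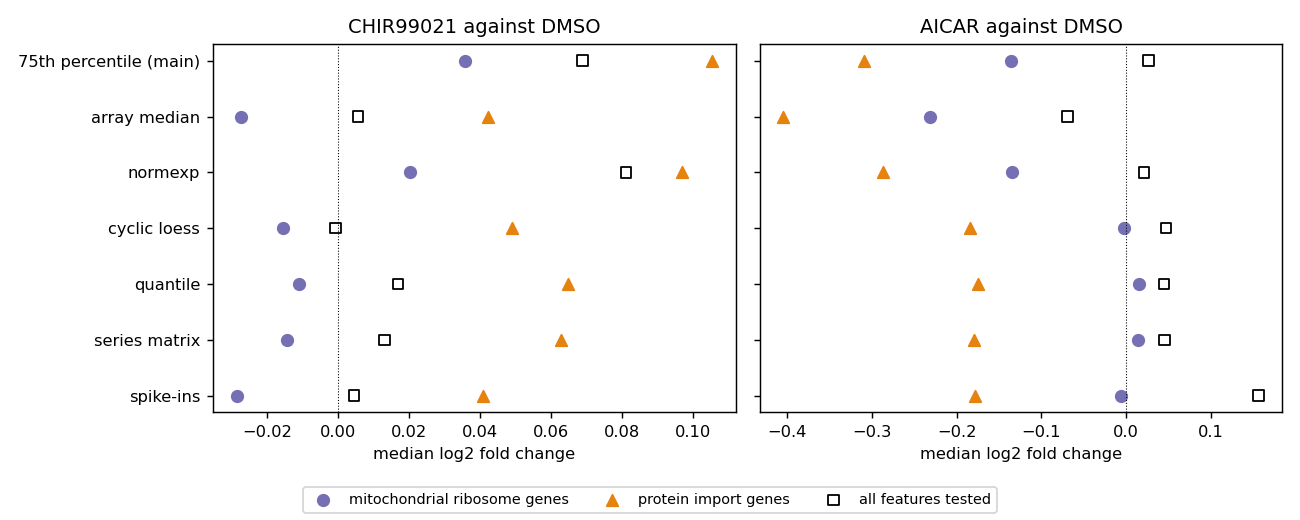
Median log2 fold change (horizontal axis) of the mitochondrial ribosomal protein genes, the import genes and all features tested under 7 ways of scaling the arrays (rows), for CHIR99021 (left) and AICAR (right). The horizontal scales differ. In AICAR the import median lies left of the ribosomal one in each row, and the ribosomal median moves from -0.23 to 0.01.

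Cytosolic ribosomal protein genes, whose products make the cell's main ribosomes, had 52 falls and 1 rise among 85 genes with AICAR, a median of -0.18 and a residual of -0.03 from the trend. These were 61.2% lower and 1.18% higher, against 29.6% and 30.9% of all features, but the falls numbered 3 to 71 under the scalings and the median was above 0, at 0.04, under 1 of them. The 85 nuclear genes for respiratory chain and ATP synthase subunits, whose products are import cargo, had 24 falls and 15 rises (28.2% and 17.6%, and 2 to 30 falls and 10 to 46 rises under the scalings), with a median of -0.02 that was above 0 under 4 scalings and a residual of 0.13. The residual of that set was between 0.12 and 0.13 under the scalings. Each had a refitted trend, which removes shifts common to features of a level, so this range is no check. The residual medians were therefore -0.19 for import, -0.01 for mitochondrial ribosomal and 0.13 for respiratory chain genes. With CHIR99021 the respiratory chain set had 26 rises and 12 falls, or 30.6% and 14.1% against 30.4% and 20.5% of all features, and the cytosolic ribosomal set 6 rises and 1 fall. Under the scalings these were 3 to 24 rises and 7 to 13 falls, and 1 to 6 of each.

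Genes that work on the mitochondrial ribosome without matching the name pattern moved in mixed ways. The shares of all features to set beside each count are 29.6% lower and 30.9% higher with AICAR. With CHIR99021 they are 20.5% lower and 30.4% higher. Of 5 ribosomal proteins with other names, 4 fell with AICAR (1 to 4 under the scalings), and Dap3, a GTP-binding protein of the small subunit, rose by 0.41 ± 0.06 (limma adjusted p = 0.000471); 0 were called by limma with CHIR99021, 1 was lower at an unadjusted p under 0.05, and up to 2 were lower under the scalings. Of 24 assembly factors and ribosomal RNA enzymes, 12 fell and 1 rose with AICAR, or 50% and 4.17%, with 6 to 15 falls and 0 to 3 rises under the scalings. Fastkd2, an RNA-binding protein needed for large subunit assembly, fell, at -1.04 ± 0.24 (limma adjusted p = 0.00563, 6 of 6 scalings, -1.16 to -0.28), and the GTPase Mtg1 rose by 0.28 ± 0.08 (limma adjusted p = 0.0131, 5 of 6 scalings, 0.19 to 0.41). Fastkd2 was dim, at -4.34, -4.52 and -4.36 on the DMSO arrays and a scattered -5.52, -4.88 and -5.93 on the AICAR arrays. The lowest levels well above background on those AICAR arrays were -6.04, -6.16 and -6.70. With CHIR99021 7 rose and 4 fell, or 29.2% and 16.7% (1 to 6 and 2 to 7 under the scalings), neither above the share of all features. The GTPase Noa1 rose, at 0.63 ± 0.05 (limma adjusted p = 4.32e-05), and the helicase Dhx30 fell, at -0.31 ± 0.04 (limma adjusted p = 0.000738). Of 18 translation factors, 6 fell and 2 rose with AICAR, or 33.3% and 11.1%, with 1 to 10 falls and 1 to 4 rises under the scalings, so the share lower was near that of all features. Mrrf, the ribosome recycling factor, fell with AICAR, at -1.13 ± 0.10 (limma adjusted p = 3.42e-05, 6 of 6 scalings, -1.25 to -0.56), and with CHIR99021, by -0.57 ± 0.10 (limma adjusted p = 0.00195, 6 of 6 scalings, -0.66 to -0.23). Mtif2, an initiation factor, rose by 0.30 ± 0.05 (limma adjusted p = 0.00172, 6 of 6 scalings, 0.20 to 0.47) with AICAR, and Mtfmt, which formylates the initiator tRNA, by 0.62 ± 0.06 (limma adjusted p = 9.48e-05) with CHIR99021.

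Of 30 other import, sorting and processing genes, 11 fell and 7 rose with AICAR, or 36.7% and 23.3% against 29.6% and 30.9% of all features, with a residual median of 0.00. The scalings gave 4 to 15 falls and 4 to 13 rises. With CHIR99021 7 rose and 3 fell (2 to 8 and 2 to 7 under the scalings), or 23.3% and 10% against 30.4% and 20.5% of all features. Clpp, a matrix protease, fell, at -0.52 ± 0.08 (limma adjusted p = 0.000536) and Immp2l, an inner membrane peptidase, rose by 0.38 ± 0.07 (limma adjusted p = 0.00184) with AICAR. Agk, a lipid kinase that is also a TIM22 subunit in human cells, rose by 0.94 ± 0.06 (limma adjusted p = 1.16e-05) with CHIR99021, where the small inner membrane protein Romo1 fell, at -0.37 ± 0.05 (limma adjusted p = 0.000426). The share lower with AICAR was 84.0% of the Timm and Tomm genes, and its difference from this list was not tested.

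Regulators known for these genes were read from the same arrays. Myc, which binds the E-box, had levels of 1.02, 0.83 and 0.85 on the DMSO arrays, 0.34, 0.24 and 0.34 on the CHIR99021 arrays and -2.88, -2.91 and -2.66 on the AICAR arrays. It was lower with AICAR on every array, at -3.72 ± 0.08 (limma adjusted p = 6.61e-08), and with CHIR99021 by -0.59 ± 0.08 (limma adjusted p = 0.000625). Nrf1 had levels of 0.89, 0.68 and 0.73 on the DMSO arrays, 1.13, 1.06 and 1.13 on the CHIR99021 arrays and 0.33, 0.20 and 0.01 on the AICAR arrays. AICAR arrays were lowest and CHIR99021 arrays highest, at -0.59 ± 0.09 (limma adjusted p = 0.000694) and 0.34 ± 0.09 (limma adjusted p = 0.0144, 5 of 6 scalings, 0.27 to 0.28). Of the GABP subunits, Gabpa, which binds the ETS motif, rose with both compounds, by 0.32 ± 0.08 with AICAR and 0.39 ± 0.08 (5 of 6 scalings, 0.33 to 0.35) with CHIR99021, and its partner Gabpb1 fell, at -0.48 ± 0.07 and -0.21 ± 0.07 (4 of 6 scalings, -0.27 to -0.23).

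Yy1 rose with CHIR99021, by 0.20 ± 0.05 (3 of 6 scalings, 0.13 to 0.15), and was not called with AICAR, at 0.05 ± 0.05. Tfam and Polrmt, which transcribe the mitochondrial genome, fell with AICAR, at -0.34 ± 0.06 (4 of 6 scalings, -0.44 to -0.20) and -0.31 ± 0.06 (5 of 6 scalings, -0.41 to -0.18); CHIR99021 replicate 2 has no Tfam value, its spots being outliers, and the CHIR99021 changes were 0.07 ± 0.07, not called, and -0.16 ± 0.06 (4 of 6 scalings, -0.23 to -0.16). The coactivator Ppargc1b rose with both, by 0.54 ± 0.11 with AICAR and 0.31 ± 0.11 (1 of 6 scalings, 0.23 to 0.26) with CHIR99021. Its relative Pprc1 fell with AICAR, at -0.32 ± 0.06 (5 of 6 scalings, -0.42 to -0.19), and rose with CHIR99021, by 0.28 ± 0.06 (5 of 6 scalings, 0.22 to 0.25). The nuclear receptor Esrra rose with AICAR, by 0.20 ± 0.04 (4 of 6 scalings, 0.10 to 0.33), and was not called with CHIR99021, at -0.10 ± 0.04. Any link between these regulators and the Timm, Tomm, Mrpl and Mrps genes was not tested.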

How the data were processed

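RNA of 9 samples, 3 per treatment group, was hybridised to 1-colour Agilent mouse arrays. The deposited scanner tables hold spot intensity values from Feature Extraction 10.7.3.1, per the file headers (10.7 in the submitters' processing notes), with the background already subtracted in the processed signal; the design build is mm9 per the file headers. The authors' value table holds log2 values that correlate above 0.999 with log2 processed intensity and share 1 column 75th percentile, 8.90, per the deposited values. Its column medians are also nearly equal, at 5.18. How it was normalized and centred is not stated. Its counts nearly equal those with quantile normalization (22 higher and 37 lower with AICAR under both), so the 2 are not separate checks.

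From the deposited intensity values, log2 processed signals were centred on each array's 75th percentile over non-control spots. Spots called outliers (136 to 192 an array) were left out, replicate spots averaged, and probes kept if well above background on at least 3 of 9 arrays (37742 of 55681). Accessions were named through a RefSeq gene table (27235 probes kept were matched), and the brightest probe stood for a gene, which gave 26866 features. Agilent's flags put 62.8% to 67.2% of spots well above background, and the number of arrays limits the precision.

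All 3 groups entered 1 limma fit (limma 3.58.1, R 4.3.3), with contrasts CHIR99021 against DMSO, AICAR against DMSO and CHIR99021 against AICAR. The brightness trend was a lowess of fold change on mean level (span 0.2). The fit was tested on simulated data. Alternatives were normexp, quantile, cyclic loess, array median and spike-in scaling, the authors' value table, other filters and probe rules, a replicate block and leaving out each array. Normexp used median signals, since mean signals were not among the columns used here, unlike the plan.

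The members and gene lists were chosen with earlier results of these data known. Named genes were, per comparison, the 6 largest called rises and falls whose groups do not overlap, the largest called change of each role, those farthest from the trend, those with opposite calls or disagreeing probes, and 20 genes named whatever their result; from other lists, the largest called rise and fall, and all regulators. Genes outside this rule that are given by value (Tomm5, Tomm6, Tomm7, Mrps14, Mrpl18, Mrpl3, Mrpl44 and Mrpl50) were chosen after their values were seen. Tomm70 is listed as Tomm70a. Protein sequences, transcripts of the mitochondrial genome and Ppargc1a, which did not pass the filter, were not analysed here.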

Additional observations from a re-analysis of the deposited data

How the results depend on the processing

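The counts of genes higher and lower with AICAR, 8 and 59, became 22 and 37 with quantile normalization, 20 and 38 with cyclic loess, 4 and 68 with array median scaling, 10 and 24 with spike-in scaling, and 22 and 37 in the series matrix values. The median fold change became -0.0475, -0.0696, -0.28, -0.0552 and -0.0466 in that order. For CHIR99021 against DMSO, 26 and 11 became 22 and 17, 20 and 18, 15 and 14, 7 and 4, and 22 and 17, with medians of 0.000127, -0.00411, -0.0164, -0.0176 and -0.00374. For CHIR99021 against AICAR, 64 and 5 became 36 and 17, 37 and 14, 67 and 4, 18 and 7, and 35 and 17, with medians of 0.0770, 0.0803, 0.28, 0.0521 and 0.0701, and 0.22 with normexp. Over all features, spike-in scaling shifted the median fold change from 0.03 to 0.16 with AICAR and from 0.10 to -0.09 for CHIR99021 against AICAR. The cause of these moves was not tested.

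Median residuals from the brightness trend moved to 0.0132 with normexp, 0.0138 with averaged probes and 0.0127 with a trend over features with a symbol (CHIR99021, -0.01 in the report), to -0.10 with averaged probes and -0.0791 with a span of 0.5 (AICAR, -0.06), and to 0.0530 with normexp and 0.0528 with a running median (CHIR99021 against AICAR, 0.08).

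Leaving out each array in turn gave 22 to 28 genes higher and 4 to 11 lower with CHIR99021, 7 to 9 and 50 to 59 with AICAR, and 59 to 64 and 4 to 5 between treatments. Medians ran from 0.0446 to 0.0614, -0.204 to -0.181 and 0.227 to 0.276, and residuals from -0.00707 to 0.00963, -0.0826 to -0.0557 and 0.0528 to 0.0855. The CHIR99021 falls, 11, were 4, 5 and 6 without DMSO replicates 1, 2 and 3, and 5 and 6 without CHIR99021 replicates 1 and 3.

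The replicate numbers did not pair the arrays: deviations of same-numbered arrays correlated between -0.06 and 0.09, and 3 of 9 arrays correlated best with their own number. A replicate block gave 25 and 5 calls for CHIR99021, 8 and 53 for AICAR and 60 and 5 between treatments.

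Mrpl43 with AICAR turned to 0.14 with quantile normalization and 0.13 in the series matrix. For CHIR99021 against AICAR, 4 genes turned: Mrpl41 (-0.00719 and -0.0122 under the same settings), Mrpl45 (-0.19 and -0.19, and -0.15 with cyclic loess), Mrps36 (-0.0791 and -0.0844, -0.0349 with cyclic loess, -0.0456 with spike-ins) and Tomm34 (-0.21 and -0.21). These turns are counted where the change was called in the report or under that setting; smaller changes of sign without a call, such as Mrpl1, Mrps12 and Mrps21 for CHIR99021 against AICAR, are not. Of 1638 comparisons of a named gene with a setting other than a left-out array, 13 were these turns. Apart from the turns, 100 lost and 54 gained a call. Of these losses 32 came under spike-in scaling, which rests on 8 spike-in probes.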
